A study of Mus musculus with 16 samples.

Results

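The CXC chemokines described here are 10 of 34650 gene names on the arrays, read by 14 of 55681 non-control probes on single-colour microarrays of primary mouse lung fibroblasts. Probes were taken by gene name: every non-control probe named in the scanner files as Cxcl1, Cxcl2, Cxcl3, Cxcl5, Cxcl9, Cxcl10, Cxcl11, Cxcl12, Cxcl16 or Pf4 was used. All cells had been passaged at least 3 times and were harvested 48 hours after transfection with a small interfering RNA (siRNA), a short duplex that lowers the transcript it matches. The siLox group received siRNA against Lox, the siLoxL1 group siRNA against Loxl1, the siLoxL2 group siRNA against Loxl2, and the scr group a scrambled siRNA, with 4 arrays in each. Lox, Loxl1 and Loxl2 encode lysyl oxidases, enzymes that cross-link collagen and elastin. Mouse strain, sex and age are not given in the sources used here, nor is it said whether the 4 arrays of a group came from separate cultures. The p-values below therefore measure the spread between these arrays, which may be technical.

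CXC chemokines are small secreted proteins with a single residue between their first cysteines, and they guide leukocytes through receptors on the cell surface. Cxcl1, Cxcl2, Cxcl3 and Cxcl5 act on Cxcr2 and draw neutrophils, and their genes are classical targets of the transcription factor NF-kB. Cxcl9, Cxcl10 and Cxcl11 act on Cxcr3 and draw activated T cells, and interferons induce them. Cxcl12, the ligand of Cxcr4 and Ackr3, is made steadily by fibroblasts and other stromal cells. Cxcl16 is made as a transmembrane protein, is released by the protease Adam10 and binds Cxcr6, and Pf4 is best known from platelet granules.

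A level below is a probe's log2 background-subtracted signal minus the 75th percentile of its array, and levels are not compared between probes. The 8 siLox and scr arrays lay on slide 1, and the 8 siLoxL1 and siLoxL2 arrays on slide 2, and no row of a slide held more than 1 group. Within a slide lie 2 comparisons, siLox against scr and siLoxL1 against siLoxL2, and slide row cannot be told apart from group in them. A comparison of either slide 2 group with scr cannot be told apart from the slides. Between 49.2% and 52.3% of a slide 1 array's spots, and between 60.4% and 63.1% of a slide 2 array's, stood well above background. The number of arrays limits the precision, and replicate arrays spread more on slide 1, where the median SD over probes was 0.18, than on slide 2, where it was 0.106. The targeted genes averaged 1.14 ± 0.69 in siLox against 4.07 ± 0.13 in scr for Lox, and 4.60 ± 0.08 in siLoxL1 against 5.75 ± 0.07 in siLoxL2 for Loxl1 (SD, n = 4 each). Loxl2 averaged 5.69 ± 0.10 in siLoxL1 and 5.38 ± 0.14 in siLoxL2. All 10 fibroblast markers examined were above background on every array of the 4 groups. Called lower in siLox than in scr were 3 of them (Col1a2, Pdgfrb and Thy1), where 12.1% of all genes were called lower. On siLoxL1 replicate 4 the Fn1 probe alone stood apart, at −2.60 against 8.25 to 8.33 on the other siLoxL1 arrays, and the mean of the other 9 markers was 4.97 to 5.06 over the siLoxL1 arrays. Of 8 epithelial markers Epcam, Cdh1, Sftpc, Sftpb and Nkx2-1 had no probe that passed the filter for testing given below. Scgb1a1, Krt5 and Aqp5 were above background on every scr, siLoxL1 and siLoxL2 array. Aqp5 averaged 0.77 in siLoxL1 and 0.73 in siLoxL2, against −2.77 in scr on the other slide. Of 15 leukocyte and macrophage markers 13 were above background on every scr array. All 6 mesothelial markers were above background on every array of the 4 groups.

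The members fall into neighbouring groups on the mouse genome, by the probe positions in the scanner files (build mm9). On chromosome 5 the probes of Cxcl5, Pf4, Cxcl3, Cxcl1 and Cxcl2 span 144.1 kb, and those of Cxcl9, Cxcl10 and Cxcl11 span 36.4 kb, with 1418 kb between the 2 groups. Cxcl12 lies on chromosome 6 and Cxcl16 on chromosome 11. Where in its transcript a probe lies was not examined. All 14 probes were among the 32430 tested, which had to exceed background clearly throughout some group. For 9 of the 14 this held on all 16 arrays. The other 5, those of Cxcl2, Cxcl3, Cxcl9 and the second probe of Cxcl10, passed only through siLox and scr.

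Promoters were read from RefSeq sequences (GRCm38.p6), which hold 250 bases before to 50 bases after the start of a gene, and 7 of the 10 members were in that table. They are shown because the members that moved together in siLox and scr include 3 neighbours with the same letters near their starts. The NF-kB consensus (kappa B) was found on either strand in 4 of the 7 genes, against 4.51% of 32851 promoters, which belong to 27025 genes. The share per gene was not worked out. Of the 4, Cxcl2 and Cxcl10 were not called in siLox against scr. In the lines below capitals mark a match, and the strand is that of the gene.
Cxcl1, chr5:90891164-90891194, plus strand: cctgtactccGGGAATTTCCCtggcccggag
Cxcl2, chr5:90903792-90903822, plus strand: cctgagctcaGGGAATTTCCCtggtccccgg
Cxcl3, chr5:90786018-90786048, plus strand: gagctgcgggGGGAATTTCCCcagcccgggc
Cxcl10, chr5:92348973-92349112, minus strand: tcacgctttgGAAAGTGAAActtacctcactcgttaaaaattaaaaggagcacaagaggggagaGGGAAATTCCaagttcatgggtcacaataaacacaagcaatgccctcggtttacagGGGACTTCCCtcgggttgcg
In Cxcl1, Cxcl2 and Cxcl3 the capitals are the same letters, in which a match on each strand overlaps the other with an offset of 1 base, and they begin at −71, −97 and −73 relative to the start. In Cxcl10 the first capitals are the core of the interferon-stimulated response element (TTTC, any 2 bases, TTTC, here on the opposite strand), found in 1 of the 7 members and in 3.44% of all promoters, and the other capitals are kappa B matches. The promoters of Pf4, Cxcl9 and Cxcl12 did not hold these letters in this window. Those of Cxcl5, Cxcl11 and Cxcl16 were not used here. A match is a run of letters, and binding was not measured.

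The comparison of siLox with scr sets arrays with lowered Lox beside the scrambled control. Lox was not the only one of the 3 targeted genes that was lower in siLox. Loxl1 averaged 5.09 ± 0.21 in siLox against 5.58 ± 0.18 in scr, and Loxl2 5.73 ± 0.22 against 6.45 ± 0.29 (SD, n = 4 each). In siLox the neutrophil-attracting chemokine genes Cxcl1, Cxcl3 and Cxcl5 and the membrane chemokine gene Cxcl16 were higher than in scr, by 1.45 to 1.93 on the log2 scale, and Cxcl12 and 1 probe of Cxcl11 were lower. Of the 14 probes 4 were called higher, 3 lower and 7 not called (limma, Benjamini-Hochberg adjusted over 32430 probes, threshold 0.05). Of all probes 21.1% were called, 9.67% higher and 11.5% lower. The median log2 fold change was 0.77 over the members and −0.047 over all probes. The arrays of the groups did not overlap for 8 of the 14 probes, 6 of them higher and 2 lower in siLox, against 28.7% of all probes, 12.8% higher and 15.9% lower. At an unadjusted p under 0.05, 11 of the 14 passed. The share of all probes that pass at this level was not counted. Counts at an unadjusted p, here and below, are therefore a description and support nothing.

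Among the neutrophil-attracting genes, Cxcl1 (chromosome 5, 91321845 to 91321904) had levels of 5.34, 4.94, 5.06 and 4.54 in siLox replicates 1 to 4, against 1.30, 3.56, 3.25 and 4.04 in scr replicates 1 to 4. All siLox arrays lay above all scr arrays, and scr replicate 1 lay far below the other scr arrays. Cxcl1 was 3.82-fold higher in siLox (log2 fold change 1.93 ± 0.55 SE, n = 4 arrays per group, 95% interval 0.65 to 3.22, limma adjusted p = 0.0450). Cxcl3 (91216694 to 91216753) read 0.21, −0.10, 0.18 and −0.54 in siLox, against −3.45, −1.51, −2.02 and −0.99 in scr. The groups again did not overlap, and Cxcl3 was higher by 1.93 ± 0.49 (limma adjusted p = 0.0339).

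Cxcl2 (91334534 to 91334593) read 1.69, 1.32, 1.53 and 0.88 in siLox, against −3.34, −0.06, −0.32 and 0.52 in scr. Its arrays did not overlap either, but its difference of 2.15 ± 0.78 was not called (limma adjusted p = 0.0841, 95% interval 0.34 to 3.97). Its SD was 0.35 in siLox and 1.73 in scr. Cxcl5 (91190490 to 91190549) read 0.30, −0.12, 0.25 and −0.60 in siLox, against −2.53, −1.32, −1.54 and −0.57 in scr. It was called higher (1.45 ± 0.40, limma adjusted p = 0.0418), although replicate 4 of siLox lay just below replicate 4 of scr and the exact two-sided permutation test of the 8 arrays gave p = 0.0571. The smallest p of that test is 0.0286, which Cxcl1, Cxcl2 and Cxcl3 reached.

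Cxcl16 (chromosome 11, 70267780 to 70267839) stood at 2.86, 2.43, 2.58 and 2.14 in siLox, against −0.46, 1.34, 1.11 and 1.76 in scr. It was 2.96-fold higher in siLox with no overlap (1.56 ± 0.45, limma adjusted p = 0.0457). The order of the arrays was shared: scr replicate 1 was the lowest scr array for 8 of the 14 probes, those of Cxcl1, Cxcl2, Cxcl3, Cxcl5, Cxcl9, Cxcl16 and the first of Cxcl10. In siLox, replicate 4 was the lowest array for 8 probes, again those of Cxcl1, Cxcl2, Cxcl3, Cxcl5, Cxcl9 and Cxcl16, and the second of Cxcl10.

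**Figure D1:**
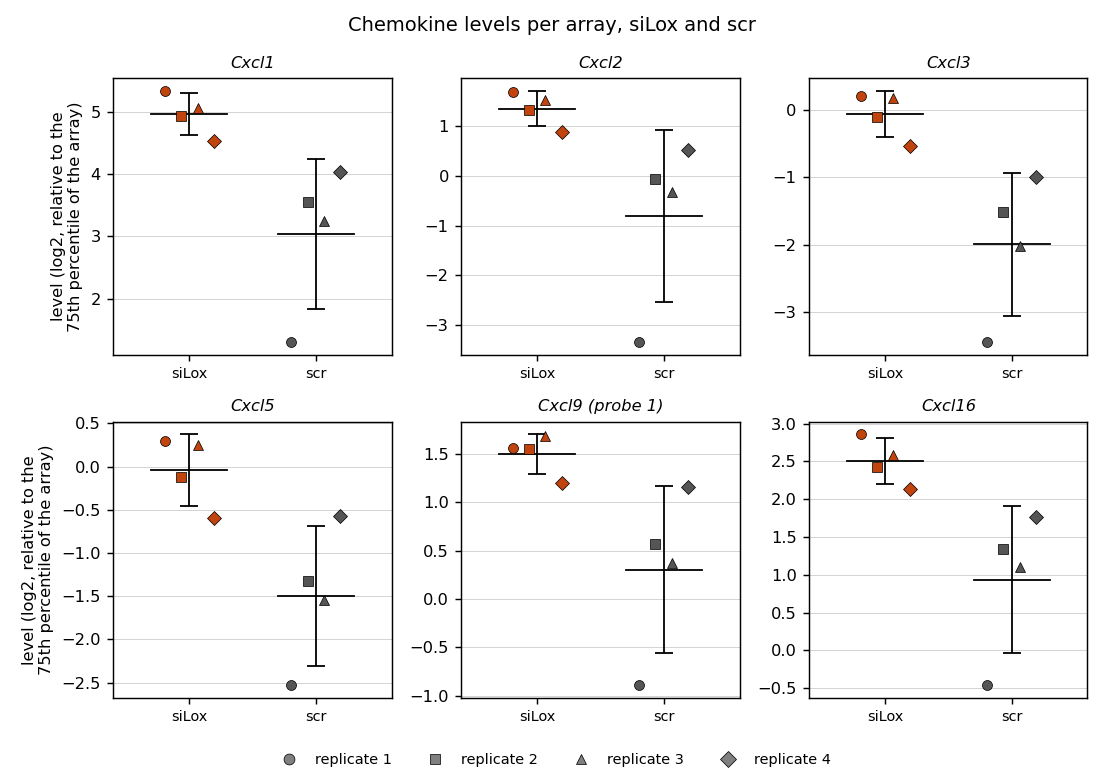
Levels (log2 signal minus the 75th percentile of its array) of Cxcl1, Cxcl2, Cxcl3, Cxcl5, the first Cxcl9 probe and Cxcl16 on each siLox and scr array, with the group mean as a line and the SD as bars (n = 4). Replicate 1 is the lowest scr array in all 6 panels, and siLox and scr overlap only for Cxcl5.

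The calls in this comparison depended on single arrays. Without scr replicate 1 the differences shrank to 1.35 for Cxcl1, 1.31 for Cxcl2, 1.44 for Cxcl3, 1.10 for Cxcl5 and 1.10 for Cxcl16, and 5 of the 14 probes were called. Among those 5 was Cxcl2, and Cxcl5 was no longer called (limma adjusted p = 0.0605), nor were Cxcl11 or either Cxcl12 probe. Without siLox replicate 4, 5 probes were called, and Cxcl1 (2.08, limma adjusted p = 0.0591) and Cxcl16 (1.69, limma adjusted p = 0.0593) were not among them. Without scr replicate 4, 10 were called, including Cxcl2 (2.59) and both Cxcl9 probes (1.48 and 1.54). Calls over all probes moved too, from 21.1% with all arrays. They were 12.4% without scr replicate 1, 19.4% without siLox replicate 4 and 30.6% without scr replicate 4. Without siLox replicate 1, 2 or 3, or scr replicate 2 or 3, limma called 0 of the 14, while 9 to 11 passed at an unadjusted p under 0.05. Calls over all probes fell as well in those 5 fits, to between 1745 and 2772, against 6851 with all arrays. Every member kept the sign of its difference in all 8 of these fits.

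Of the interferon-inducible chemokine genes, Cxcl9 (chromosome 5, 92752191 to 92752250) read 1.56, 1.55, 1.68 and 1.20 in siLox, against −0.89, 0.57, 0.37 and 1.16 in scr. The groups did not overlap, though replicate 4 of each came close, and the difference of 1.19 ± 0.39 was not called (limma adjusted p = 0.0658). The second Cxcl9 probe gave 1.25 ± 0.40 (limma adjusted p = 0.0597). Cxcl10 (92775781 to 92775840) read 7.57, 7.78, 7.70 and 7.62 in siLox, against 7.38, 7.57, 7.46 and 7.74 in scr. These ranges overlapped, and the difference was 0.13 ± 0.09 (95% interval −0.08 to 0.35, limma adjusted p = 0.317). The second Cxcl10 probe (92776616 to 92776675), whose accession had no symbol in the RefSeq table, read 0.35 ± 0.16 and was not called.

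Cxcl11 was read by a pair of probes, both lower in siLox on average and 1 of them called. The probe at 92788640 to 92788699 read 2.03, 2.23, 2.26 and 2.03 in siLox, against 2.45, 2.53, 2.39 and 2.35 in scr. It was lower in siLox without overlap (−0.29 ± 0.08, limma adjusted p = 0.0426). The probe at 92788567 to 92788626 read 7.32, 7.37, 7.49 and 7.60 in siLox, against 7.70, 7.70, 7.53 and 7.63 in scr, and its difference of −0.20 ± 0.08 was not called (limma adjusted p = 0.118). That probe shares a run of at least 20 bases with 7 probes of other gene names, 5 of them in the same orientation. The longest shared run was 31 bases. Bases 13 to 42 of it are shown here, with a run that 6 other probes also carry in capitals.
Cxcl11 probe, minus strand: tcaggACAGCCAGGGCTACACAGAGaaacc
These are letters of the mouse B1 repeat, a short element scattered over the genome, and whether RNA of other genes adds to this signal was not tested. No other member probe shared such a run. The RefSeq table lists mouse Cxcl11 as a transcribed pseudogene.

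Cxcl12 was lower in siLox at both of its probes, which are annotated to different RefSeq transcripts of the gene. The first (chromosome 6, 117131227 to 117131286) read 5.72, 5.89, 6.03 and 6.23 in siLox, against 6.50, 6.58, 6.44 and 6.34 in scr. The groups did not overlap, and the level in siLox was 70.8% of that in scr (−0.50 ± 0.12, limma adjusted p = 0.0264). The second (117125026 to 117125085) read 4.37, 4.46, 4.64 and 5.14 in siLox, against 5.82, 5.32, 5.47 and 5.04 in scr. It was called lower too (−0.76 ± 0.21, limma adjusted p = 0.0425), with replicate 4 of siLox above replicate 4 of scr. Pf4 (chromosome 5, 91202275 to 91202334) read −0.23, −0.17, −0.02 and −0.22 in siLox, against 0.00, −0.26, 0.51 and 0.57 in scr. Its groups overlapped and it was not called (−0.36 ± 0.19, limma adjusted p = 0.192).

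**Figure D2:**
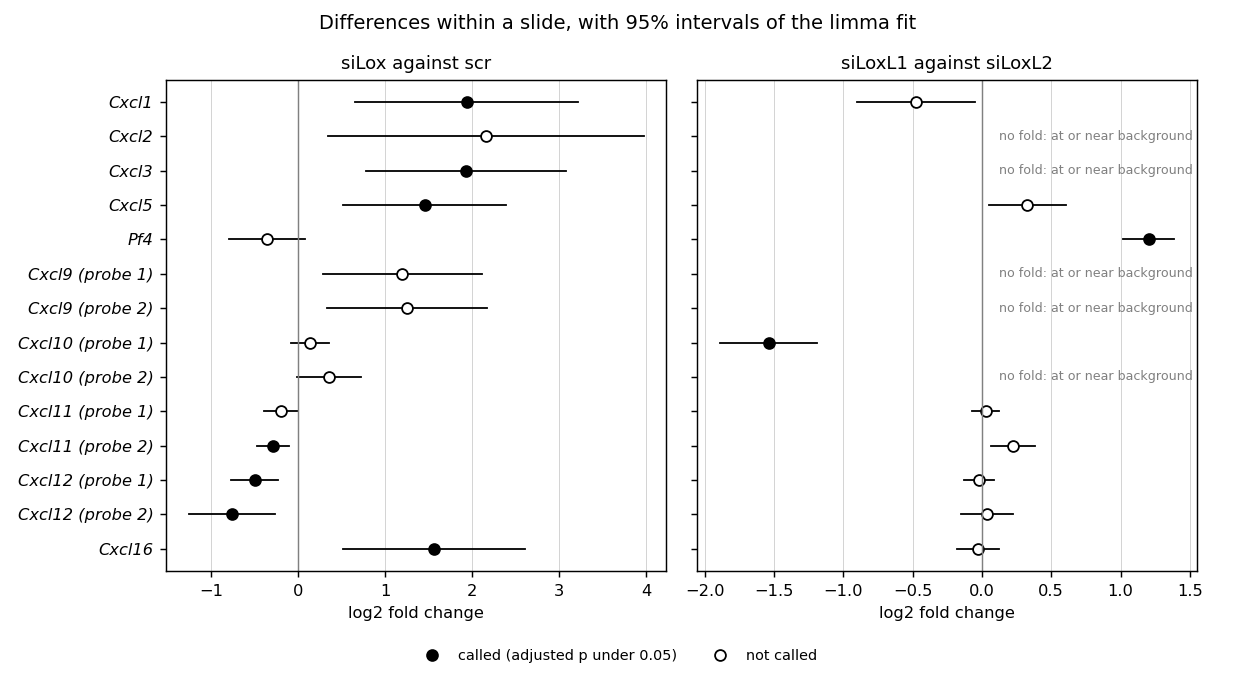
Log2 fold change of the 14 member probes for siLox against scr (left) and siLoxL1 against siLoxL2 (right), as points with 95% intervals of the limma fit, filled where called, with no point on the right for 5 probes at or near background on slide 2. Probe 1 and probe 2 of a gene are given in the order of the text for Cxcl9, Cxcl10 and Cxcl12, and probe 1 of Cxcl11 is the one that shares a run with other probes. On the left 4 filled points lie above 0 and 3 below, and on the right Pf4 lies above 0 and Cxcl10 below.

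The NF-kB pathway was read through a list of 24 genes of its inputs, subunits and regulators, Zc3h12a, Zfp36 and Elavl1 among the last. Each was read by its brightest probe, and 20 could be tested. In siLox 6 were called higher and 0 lower, where 22.4% of all genes were called, 10.4% higher and 12.1% lower. The median log2 fold change was 0.56, and 14 of the 20 passed at an unadjusted p under 0.05. The called genes included Nfkbie, an NF-kB inhibitor (1.64 ± 0.43), the subunit gene Relb (1.23 ± 0.35), Zc3h12a, whose product degrades inflammatory mRNAs (1.16 ± 0.31), and the interleukin-17 receptor gene Il17ra (0.81 ± 0.12). The limma adjusted p was 0.0350 for Nfkbie, 0.0448 for Relb, 0.0369 for Zc3h12a and 0.00956 for Il17ra. Whether calls of listed genes hold without single arrays was not tested. Il1a, Il1b, Il17a and Rel had no tested probe. The list mean lay at 2.43 to 2.74 on the siLox arrays, against 1.52 to 2.35 on the scr arrays, with scr replicate 1 the lowest.

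Of 18 tested genes of the interferon pathway, 4 were called higher and 5 lower in siLox, where 10.4% of all genes were called higher and 12.1% lower. Ifnb1, the interferon beta gene (1.13 ± 0.32), and the transcription factor gene Irf1 (0.70 ± 0.16) rose, whereas the kinase gene Jak2 (−0.46 ± 0.11) fell. The list mean was 3.27 to 3.28 in siLox, against 3.19 to 3.31 in scr. Of 5 tested receptors, Ackr3, the scavenging receptor of Cxcl12, fell by 1.13 ± 0.22 on the log2 scale (limma adjusted p = 0.0173), and 4 were not called. Of those 4, Cxcr6 was above background on 4 siLox and 4 scr arrays. Cxcr4 was so on 2 siLox arrays and 1 scr array, and Cxcr5 and Ackr1 on 0 arrays of either group. Cxcr1, Cxcr2 and Cxcr3 had no tested probe. Of 8 tested proteases that cleave chemokines, Adam10 (−0.81 ± 0.12) and Mmp2 (−0.57 ± 0.14) fell and 0 rose. Dpp4, 1 of the 8, was above background on 0 siLox and 0 scr arrays. Of the remaining family members Cxcl14 alone could be tested and was not called (−0.46 ± 0.21).

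Leukocytes can also make these chemokines. Of 15 leukocyte and macrophage markers 2 were called higher in siLox, the scavenger receptor gene Marco (1.08 ± 0.16) and the mannose receptor gene Mrc1 (0.65 ± 0.10), and 0 lower. Of all genes 10.4% were called higher and 12.1% lower, so the count called higher is near the share of all genes. The mean of the 15 lay at −0.59 to −0.36 on the siLox arrays, against −1.53 to −0.51 on the scr arrays. In scr replicate 1 was the lowest, as it was for 8 of the 14 chemokine probes. Of 5 neutrophil markers tested, S100a8 rose and Ly6g and Elane fell, and S100a9, Retnlg and Ltf had no tested probe. Among 6 endothelial, 3 epithelial and 3 platelet markers tested limma called 0, with 2, 0 and 1 at an unadjusted p under 0.05, and of 6 mesothelial markers 1 was higher and 3 were lower. In bulk RNA fewer cells of a type and less RNA per cell cannot be told apart, and the part of these cells in the chemokine differences was not tested.

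The genes whose levels followed Cxcl1 most closely were sought by the root mean square difference over the 16 arrays after each slide's mean had been removed. They were Rasgef1a (0.228), Icam1 (0.240), Syt4 (0.242), Zmynd15 (0.244) and Slc7a2 (0.245), where Cxcl1 itself varied by 0.907. Icam1 encodes an adhesion molecule for leukocytes. In siLox against scr these 5 differed by 1.63 to 1.93, a likeness to Cxcl1 that the choice of genes fixed. Zmynd15 overlaps Cxcl16 on chromosome 11 in the RefSeq table.

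Within slide 2, siLoxL1 was set against siLoxL2. Pf4 was higher and Cxcl10 lower in siLoxL1. Of the 14 probes 1 was called higher, 1 lower and 12 not called, where 6.73% of all probes were called, 4.41% higher and 2.32% lower. Non-overlapping groups were found for 4 of the 14 probes, 2 higher and 2 lower, against 19.0% of all probes, 13.2% higher and 5.72% lower. The median log2 fold change was −0.023 over the members and 0.029 over all probes.

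Pf4 read 1.00, 0.82, 0.86 and 0.84 in siLoxL1, against −0.29, −0.51, −0.15 and −0.36 in siLoxL2. No arrays overlapped, and Pf4 was 2.31-fold higher in siLoxL1 (1.20 ± 0.08, limma adjusted p = 0.00113). Of 3 platelet markers tested limma called 0, with 1 at an unadjusted p under 0.05, and Ppbp, Gp9 and Gp6 had no tested probe. Of the 15 leukocyte and macrophage markers limma called 0, with 8 at an unadjusted p under 0.05 and a mean of −0.72 to −0.66 in siLoxL1 against −0.73 to −0.52 in siLoxL2.

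Cxcl10 read 2.40, 2.72, 2.62 and 1.99 in siLoxL1, against 3.95, 3.80, 4.05 and 4.08 in siLoxL2. It stood at 34.4% of the siLoxL2 level in siLoxL1, with no overlap (−1.54 ± 0.15, limma adjusted p = 0.00461). Replicate 4 of siLoxL1 was the lowest array, and without it the difference was −1.39. Its second probe was above background on 0 siLoxL1 arrays and 1 siLoxL2 array, so no fold is given. Of the 18 interferon genes 7 fell and 1 rose in siLoxL1, where 7.11% of all genes were called, 2.34% lower and 4.77% higher. Those that fell include the transcription factor gene Irf7 (−1.65 ± 0.23), the RNA sensor gene Ifih1 (−0.97 ± 0.11), the transcription factor gene Stat2 (−0.86 ± 0.10), and the RNA sensor gene Ddx58 (−0.63 ± 0.10). The receptor gene Ifnar1 rose by 0.24 ± 0.05. The list mean was 1.86 to 2.16 in siLoxL1, against 2.23 to 2.42 in siLoxL2.

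**Figure D3:**
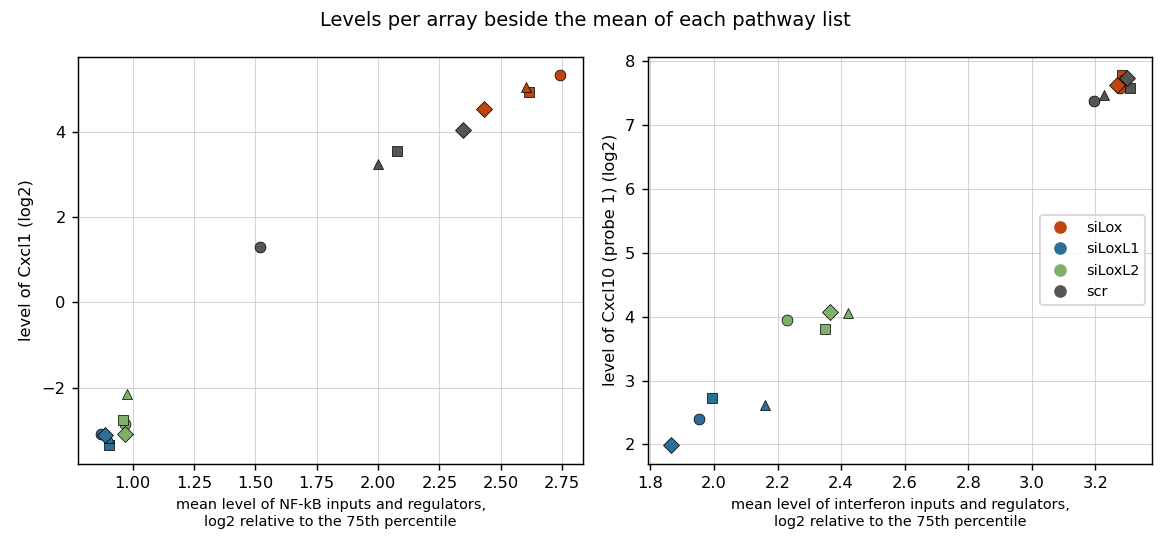
Level of Cxcl1 against the mean of 20 genes of the NF-kB list (left) and of Cxcl10 (probe 1) against the mean of 18 interferon pathway genes (right). Each point is 1 array, coloured by group, with the marker shape giving the replicate. In the right panel the siLoxL1 arrays lie below the siLoxL2 arrays on both axes, and siLox and scr lie together at the top.

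The genes that followed Cxcl10 most closely were Rtp4 (root mean square difference 0.129), Dhx58 (0.132), Usp18 (0.135), Ifit1 (0.144) and Slfn8 (0.173), where Cxcl10 varied by 0.571. Rtp4, Dhx58, Usp18 and Ifit1 are known interferon-induced genes. Their differences between siLoxL1 and siLoxL2 were −1.65 to −1.39, close to that of Cxcl10 because they were chosen for its pattern, so these are a description and no test is given.

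Cxcl1 read −3.09, −3.35, −3.18 and −3.11 in siLoxL1, against −2.86, −2.75, −2.14 and −3.08 in siLoxL2. The arrays did not overlap, though only narrowly, and the difference was not called (−0.48 ± 0.18, limma adjusted p = 0.154). Cxcl5 read −1.32, −1.53, −1.22 and −1.35 in siLoxL1, against −1.57, −1.92, −1.42 and −1.83 in siLoxL2, and was not called (0.33 ± 0.12, limma adjusted p = 0.138). For Cxcl16 the difference was −0.028 ± 0.065 (95% interval −0.18 to 0.12), and for Cxcl12 it was −0.017 ± 0.047 at the first and 0.039 ± 0.081 at the second probe. The Cxcl11 probe without a shared run differed by 0.22 ± 0.07, with no overlap but no call (limma adjusted p = 0.0901), and the run-sharing probe by 0.028 ± 0.042. Cxcl2, Cxcl3 and the first Cxcl9 probe were above background on 0 of the 8 slide 2 arrays, so no fold is given. The second Cxcl9 probe was above background on 1 array of each group, and none is given for it either. Of the NF-kB list Tlr3, an RNA sensor, was called lower (−0.77 ± 0.08) and 0 were called higher. Among the receptors limma called 0, with 1 at an unadjusted p under 0.05, and the largest differences were those of Cxcr4 (−0.42 ± 0.25) and Ackr3 (−0.38 ± 0.10, limma adjusted p = 0.0598). Among the proteases it called 0, with 2 at an unadjusted p under 0.05, and the largest differences were those of Dpp4 (−0.28 ± 0.14) and Mmp8 (0.21 ± 0.08).

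**Figure D4:**
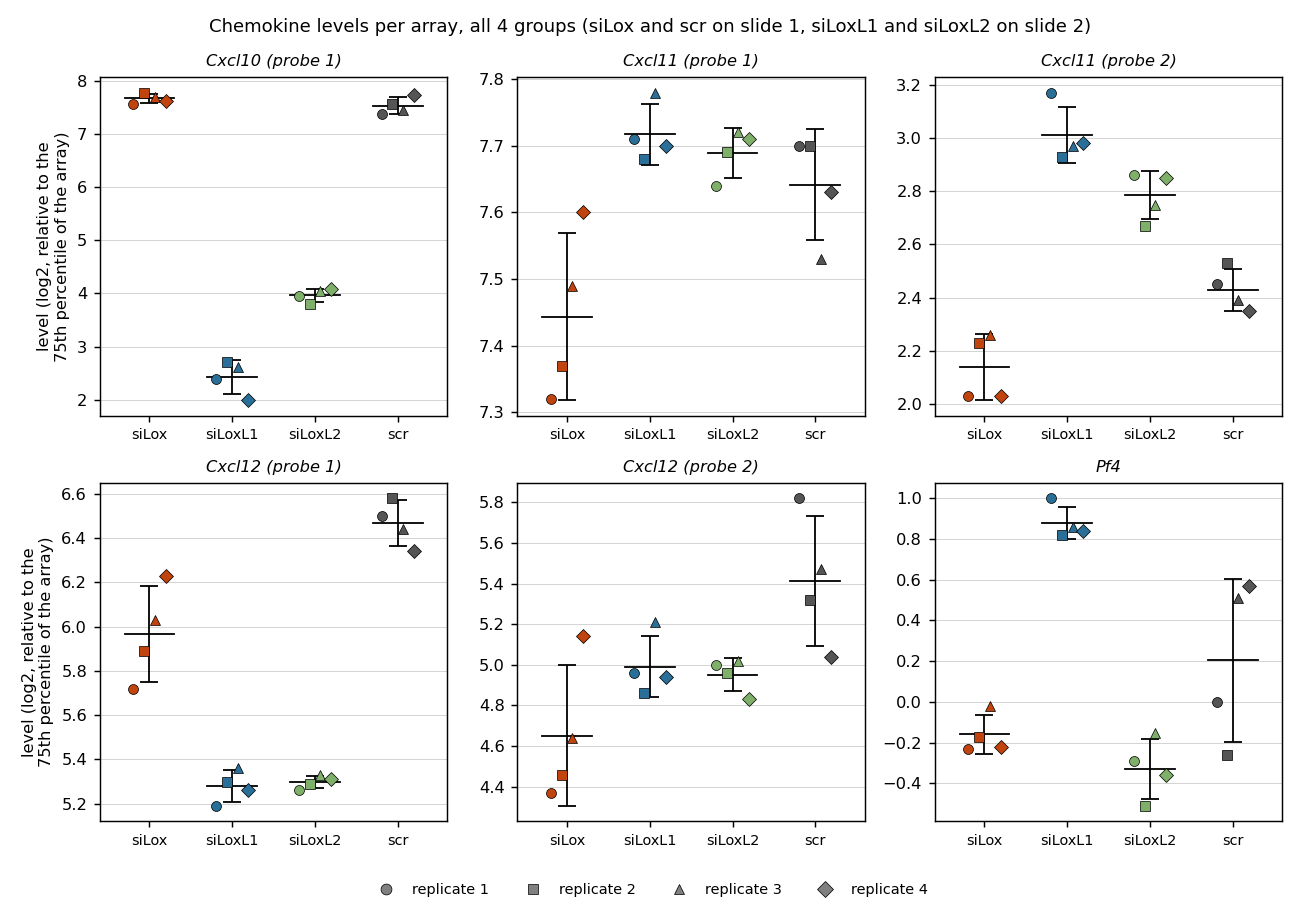
Levels (log2 signal minus the 75th percentile of its array) of Cxcl10, Cxcl11, Cxcl12 and Pf4 probes on each array of the 4 groups, with the group mean as a line and the SD as bars (n = 4). Cxcl10 (probe 1) lies between 7.38 and 7.78 on all siLox and scr arrays and between 1.99 and 4.08 on the siLoxL1 and siLoxL2 arrays, which are on the other slide, and Pf4 is highest in siLoxL1.

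Against scr, across slides, Cxcl1, Cxcl2, Cxcl3, Cxcl9 and Cxcl10 stood far lower in siLoxL1 and siLoxL2, and the other members differed less or not in one direction. The probes of Cxcl2, Cxcl3 and Cxcl9 and the second of Cxcl10 passed the filter only through siLox and scr. Their lower levels on slide 2, and the bounds below, are therefore a description and support nothing. Cxcl1 differed by −6.22 ± 0.53 in siLoxL1 and by −5.74 ± 0.56 in siLoxL2, and Cxcl10 by −5.11 ± 0.16 and −3.57 ± 0.10. Where no array of a slide 2 group was above background, a lower bound was taken from the dimmest probe above background on each array. Cxcl2 was at least 38.7-fold lower in siLoxL1 and at least 41.3-fold lower in siLoxL2, Cxcl3 at least 16.9-fold and 18.0-fold, and Cxcl9 (first probe) at least 83.2-fold and 75.6-fold. The second Cxcl9 probe, above background on 1 array of each slide 2 group, differed by −5.34 ± 0.99 and −5.56 ± 0.43. It stood at 2.46% and 2.12% of scr, which are smaller drops than the bounds of the first probe. The bounds hold for the background subtraction used here. With normexp the fitted log2 differences were smaller than the bounds, at −3.18 and −3.19 for Cxcl2, −2.19 and −2.15 for Cxcl3, and −4.02 and −3.85 for the first Cxcl9 probe. Cxcl16 differed by −1.80 ± 0.43 and −1.77 ± 0.43, and Cxcl12 by −1.19 ± 0.07 and −1.17 ± 0.07 at the first probe. The second Cxcl12 probe read −0.42 ± 0.16, which was not called (limma adjusted p = 0.0525), and −0.46 ± 0.15.

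In siLoxL1 against scr 2 probes were called higher, 9 lower and 3 not called, where 59.2% of all probes were called, 38.5% higher and 20.7% lower. In siLoxL2 against scr 1 was higher, 11 lower and 2 not called, where 58.3% were called, 36.7% higher and 21.7% lower. Another background correction (normexp) turned the split of all calls, to 10138 higher and 15460 lower in siLoxL1, against 12486 and 6701 here, and to 9726 and 15691 in siLoxL2, against 11893 and 7027. The 5 probes that passed the filter only through siLox and scr had to be lower on slide 2, so these counts support nothing. Pf4 differed by 0.67 ± 0.18 in siLoxL1 and by −0.53 ± 0.19 in siLoxL2, where the groups overlapped and the call held in 2 of the 8 fits without 1 array. Cxcl5 was not called in either (0.14 ± 0.36 and −0.19 ± 0.37). The second Cxcl11 probe was higher in both (0.58 ± 0.07 and 0.36 ± 0.07). The run-sharing Cxcl11 probe was called in neither (0.076 ± 0.062 and 0.048 ± 0.060), but by quantile normalization it was called lower in both (−0.21 and −0.18).

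The median of all probes shifted by 0.18 in siLoxL1 and 0.16 in siLoxL2 against scr, and the pathway means moved with the slide as well. The NF-kB list lay at 0.87 to 0.90 in siLoxL1 and 0.96 to 0.97 in siLoxL2, against 1.52 to 2.35 in scr, and the interferon list at 1.86 to 2.16 and 2.23 to 2.42, against 3.19 to 3.31. Slide and siRNA cannot be told apart in these values, and the 2 comparisons share the scr arrays.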

How the data were processed

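RNA of 16 fibroblast samples was labelled with Cy3 per the labels. The deposited scanner files hold intensity values per spot, made by the authors with Agilent Feature Extraction 10.7.3.1 (the submitters' processing notes), with background subtracted per the file headers, and flags deposited beside them. The authors' value table holds log2 values whose sorted columns differ by at most 0.000965 and whose medians are 4.826. Its correlation with the scanner signal on the log2 scale was 0.997 to 0.999 per array, and its centring is unknown.

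Outlier spots were dropped, spots of a probe averaged, and the log2 signal taken relative to the array's 75th percentile. Probes that cleared background throughout 1 or more groups, with a value on all 16 arrays, were tested with limma 3.58.1 in R 4.3.3, on the 8 arrays of each comparison, at an adjusted p threshold of 0.05. The fits of the 2 comparisons within a slide were tested on simulated data, and those across slides were not. Symbols of 50.3% of probes came from the RefSeq table of GRCm38.p6. The members and gene lists were chosen with earlier results of these data known. All member probes are named. The values of 1 listed gene are not reported here. Of each list up to 4 called genes with the largest change are named per comparison within a slide. Where none was called, up to 2 genes are named. Genes without a tested probe are named as well, and so are the 5 nearest patterns of Cxcl1, Cxcl10 and Cxcl12.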

Additional observations from a re-analysis of the deposited data

How the results depend on the processing

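Of the 14 member probes, 7 were called for siLox against scr, 2 for siLoxL1 against siLoxL2, 11 for siLoxL1 against scr and 12 for siLoxL2 against scr. For siLox against scr limma called 0 with no filter on dim probes and 0 with the replicate number as a block, with 10 at an unadjusted p under 0.05 in each, and over all probes the block called 0. It called 11 with array weights, and 0 to 10 when 1 array was left out. For siLoxL1 against siLoxL2, 4 were called with a variance trend and robust fit, and 2 to 3 with 1 array left out, and Pf4 and Cxcl10 were called in all 19 alternatives. Over all probes the block gave 515 calls there against 2182. Same-numbered arrays, which share a slide column, had deviations that correlated at −0.152 to −0.00356 between siLox and scr. Between siLoxL1 and siLoxL2 they correlated at 0.0393 to 0.203, and replicates 1, 2 and 3 matched their own number best but replicate 4 did not, so the numbers were not taken as pairs. For siLoxL1 and siLoxL2 against scr, 7 each were called among the 9 probes above background on all 16 arrays. Of all probes in that setting 68.4% and 67.5% were called, so these counts are near the share of all probes. With 1 array left out, 11 to 12 and 10 to 12 of the 14 were called. Of all probes 52.7% to 62.4% and 51.3% to 61.4% were called in those fits.

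Some small differences changed sign. For siLoxL1 against siLoxL2 the second Cxcl12 probe read −0.018 by quantile normalization and in the authors' table, −0.024 by normexp, and −0.033 to 0.084 with 1 array left out. The first read 0.056 by normexp and −0.045 to 0.011 with 1 array left out, the run-sharing Cxcl11 probe −0.028 by quantile normalization and −0.027 in the authors' table, and Cxcl16 −0.060 to 0.022 with 1 array left out. Against scr that Cxcl11 probe read −0.21 in siLoxL1 and −0.18 in siLoxL2 by quantile normalization and in the authors' table, where it was called lower (limma adjusted p = 0.0141 to 0.0176). Cxcl5 read −0.014 by normexp and −0.21 to 0.44 with 1 array left out in siLoxL1, and 0.16 without replicate 4 of both groups and −0.54 to 0.12 with 1 array left out in siLoxL2. The cause was not tested. Over all probes, siLox against scr gave 12844 calls in a fit of all 16 arrays, 2623 with no filter, 11824 with array weights and 1745 to 9937 with 1 array left out, against 6851. For siLoxL1 against siLoxL2 these were 1033 in the fit of all arrays and 412 with no filter, with 3364 among probes above background on all 16 arrays, 4005 with a variance trend and 162 without replicate 4 of both groups, and 564 to 1320 with 1 array left out, against 2182. Signal over background limits Cxcl2, Cxcl3 and Cxcl9 on slide 2 to bounds.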

Other observations

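Cxcl12 (first probe) was followed most closely by Hip1, Pon3, Lgmn, Maged1 and Olfm1, with root mean square differences of 0.0552 to 0.0652 over the 16 arrays after removal of the slide means, where Cxcl12 varied by 0.207. Lgmn encodes a lysosomal protease. Their differences were −0.63 to −0.45 between siLox and scr and −0.055 to 0.077 between siLoxL1 and siLoxL2. They were chosen for following Cxcl12 on these arrays, which fixes that likeness, so no test is given.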
